A study of Mus musculus with 4 samples.

Results

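The subcortical maternal complex is a protein assembly beneath the plasma membrane of mammalian eggs and early embryos, and its messenger RNAs were examined here in sorted mouse embryonic stem cells. The genes were taken by name: Ooep, Tle6, Khdc3, Nlrp5 and Padi6, kept where the deposited tables hold a row. Of the 5, 3 had rows, Ooep with 1 transcript, Khdc3 with 4 and Tle6 with 10, among 24190 gene symbols in all. Nlrp5 and Padi6 had no row and were not analysed here. The genes were chosen on differences seen between the cell lines, so the values below are a description and carry no test.

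In the mouse egg, OOEP and KHDC3 are small proteins with KH-like domains, a fold that often binds RNA. TLE6 is a divergent member of the Groucho corepressor family, NLRP5 is a large leucine-rich repeat protein that holds the assembly together, and PADI6 belongs to the peptidylarginine deiminases. The complex is inherited from the egg, and mouse embryos whose mothers lack OOEP, TLE6, NLRP5 or PADI6 arrest in early cleavage, while loss of maternal KHDC3 slows cleavage. In mouse embryonic stem cells, KHDC3 and OOEP are also known to act together at stalled DNA replication forks, a role outside the egg cortex.

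The cells were E14 (ES-E14TG2a), a male mouse embryonic stem cell line grown in serum-free medium with 0.8 µM of the MEK inhibitor PD0325901 and 3.3 µM of the GSK3β inhibitor CHIR99021. All 4 libraries share that background and a stably integrated reporter under the Zscan4c promoter, which is active in 2-cell embryos. In the first line, called reporter-only here, the promoter drove GFP alone. In the second, called the fusion line, its product was a GFP-Zscan4c fusion. Each line was sorted into GFP-negative cells, labelled pluripotent, and GFP-positive cells, labelled 2C-like, with 1 library for each of the 4 populations and so no replicate error. The reporter lines are described as clonal, so the transgene and the clone cannot be told apart in any difference between the lines.

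Values are TPM, a unit scaled for library size and transcript length, which allows levels to be compared between genes. The listed transcripts added up to 66.6% to 69.1% of the complete scale, and TPM do not keep the read depth, so no counting error can be given. Among the libraries, GFP-negative reporter-only cells stood apart, with 48.4% of symbols listed at 0 against 11.6% to 19.5% in the other libraries, so each comparison that uses it is read with that in view. Markers of the 2-cell state followed the labels in their sums, whereas those of pluripotency did not set GFP-negative cells apart. Pou5f1, a core pluripotency factor, was between 1075 and 1447 TPM in all 4 libraries. With GFP-negative cells given first, the 13 listed pluripotency genes summed to 6621 and 5695 TPM (reporter-only line) and to 3304 and 5909 TPM (fusion line). After the sort, 3 of the 13 were 2-fold or more higher with GFP and 1 lower in the reporter-only line, against 4 and 0 in the fusion line. The 23 listed markers of the 2-cell state summed to 74.5 TPM in the GFP-negative and 1886 TPM in the GFP-positive cells of the reporter-only line, and to 69.2 TPM and 3975 TPM in the fusion line. These markers include Zscan4b to Zscan4f, and the part of RNA from the fusion transgene in their values was not tested.

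The stretches of DNA just before the starts of the genes are shown first, because Ooep and Khdc3 were both several-fold lower in the fusion line while Tle6 varied by transcript. Each is the 250 bases before a RefSeq start on GRCm38.p6, read on the strand of the gene. Ooep lies on chromosome 9 (window chr9:78378589-78378838, minus strand), Khdc3 on chromosome 9 (chr9:73102148-73102397, plus strand) and Tle6 on chromosome 10, with an upstream start (chr10:81600901-81601150, minus strand) and a downstream start (chr10:81597368-81597617, minus strand). Capitals mark matches, on either strand, to any of 7 motifs: the E-box (CANNTG), its palindromic form (CACGTG, which every count of E-boxes includes), the box bound by NF-Y (CCAAT), the TATA box (TATAAA), the short motif reported for ZSCAN4 (TGCACAC), a run of the CA repeat (CACACAC), and the DUX site, a palindrome longer than the others.
Ooep: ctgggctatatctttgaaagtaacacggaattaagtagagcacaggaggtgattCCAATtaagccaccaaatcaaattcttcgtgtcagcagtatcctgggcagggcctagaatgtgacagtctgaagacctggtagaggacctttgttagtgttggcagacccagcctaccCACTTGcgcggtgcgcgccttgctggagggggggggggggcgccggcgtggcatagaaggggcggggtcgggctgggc
Khdc3: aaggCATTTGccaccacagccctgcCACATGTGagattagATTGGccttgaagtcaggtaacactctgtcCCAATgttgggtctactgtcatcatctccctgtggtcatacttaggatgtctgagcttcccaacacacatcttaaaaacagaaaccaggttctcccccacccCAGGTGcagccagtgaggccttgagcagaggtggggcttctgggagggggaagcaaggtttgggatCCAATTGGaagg
Tle6 upstream: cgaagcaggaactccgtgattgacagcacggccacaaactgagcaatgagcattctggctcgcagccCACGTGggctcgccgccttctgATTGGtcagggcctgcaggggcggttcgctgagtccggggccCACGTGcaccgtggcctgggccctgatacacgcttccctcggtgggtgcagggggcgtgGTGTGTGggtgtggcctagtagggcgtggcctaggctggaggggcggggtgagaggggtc
Tle6 downstream: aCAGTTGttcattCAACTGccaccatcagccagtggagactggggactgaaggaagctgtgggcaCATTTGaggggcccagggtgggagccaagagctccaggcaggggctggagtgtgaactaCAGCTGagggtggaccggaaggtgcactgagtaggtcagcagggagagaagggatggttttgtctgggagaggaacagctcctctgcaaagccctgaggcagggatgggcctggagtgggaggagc

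The windows of Ooep and Khdc3 differed in base composition. Ooep had 11 CpG dinucleotides and 57.2% GC, whereas Khdc3 had 0 CpG and 52.4% GC, and the median over 32851 windows of the same length was 6 CpG and 52.4% GC. The upstream Tle6 window had 17 CpG and the downstream window 1. The Khdc3 window held 5 E-box and 4 CCAAT matches, and some of these overlap. The Ooep window held 1 match to each. These are common motifs, found in 66.2% and 33.8% of all windows. The upstream Tle6 window held 2 copies of CACGTG, a motif in 6.02% of windows, and 1 CA repeat match, a motif in 6.62%. No window of the 3 genes held the letters TGCACAC (3.67% of all windows), the DUX site (0.0304%) or TATAAA (12.4%). A match is a description of the letters and not a bound site.

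The upstream Tle6 start is that of ENSMUST00000072020, a protein-coding transcript, and the downstream start is that of ENSMUST00000135008, a processed transcript with no annotated protein. The Khdc3 start is that of ENSMUST00000034737 and ENSMUST00000173734. The RefSeq start of Ooep lies inside the GENCODE M21 gene, whose annotated 5′ end is further upstream.

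Ooep differed most between the lines. The gene (ENSMUSG00000032346.7, chr9:78376109-78378725, minus strand, 3 exons) has 1 annotated transcript, so no reads were divided among isoforms. Its level was 56.6 TPM in the GFP-negative and 30.6 TPM in the GFP-positive cells of the reporter-only line, and 4.03 TPM and 3.21 TPM in the same populations of the fusion line. Both libraries of the reporter-only line lay above both libraries of the fusion line, an order whose share among all genes was not counted. The reporter-only line was 9.54 times higher in GFP-positive cells and 14.1 times higher in GFP-negative cells. As log2(TPM + 1), a scale that makes differences of low genes look smaller, the ratios of the fusion line to the reporter-only line were -2.91 and -3.52. In bulk RNA of a sorted population, fewer cells with a transcript and less transcript per cell cannot be told apart.

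Khdc3 showed the same order of lines. It encodes FILIA, the partner of OOEP, and lies on the same chromosome (ENSMUSG00000092622.8, chr9:73101836-73104438, plus strand). Its level was 32.7 TPM in the GFP-negative and 29.7 TPM in the GFP-positive cells of the reporter-only line, against 6.81 TPM and 5.43 TPM in the fusion line. The reporter-only line was 5.46 times higher in GFP-positive cells and 4.80 times higher in GFP-negative cells, with log2 ratios of -2.25 and -2.11. As for Ooep, the libraries of the lines did not overlap. The share of all genes without such overlap was not counted, so nothing is read from an order of this kind, above, here or below.

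Tle6 had the same order of lines, with a small gap in GFP-negative cells. The gene (ENSMUSG00000034758.12, chr10:81590904-81601073, minus strand) was at 10.6 TPM in the GFP-negative and 11.2 TPM in the GFP-positive cells of the reporter-only line, and at 8.82 TPM and 3.69 TPM in the fusion line. The GFP-positive library of the fusion line was the low one, 3.03 times below the GFP-positive library of the reporter-only line (log2 ratio -1.38). In GFP-negative cells the lines were 1.20 times apart (log2 ratio -0.24). With ENSMUST00000134457, its transcript of highest mean TPM, counted alone, these ratios were -0.46 in GFP-positive and -2.31 in GFP-negative cells. That transcript was the highest only in the GFP-negative reporter-only library, at 10.6 TPM, and its mean rests mostly on that library. Which population showed the larger line difference thus depended on the transcripts counted.

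**Figure D1:**
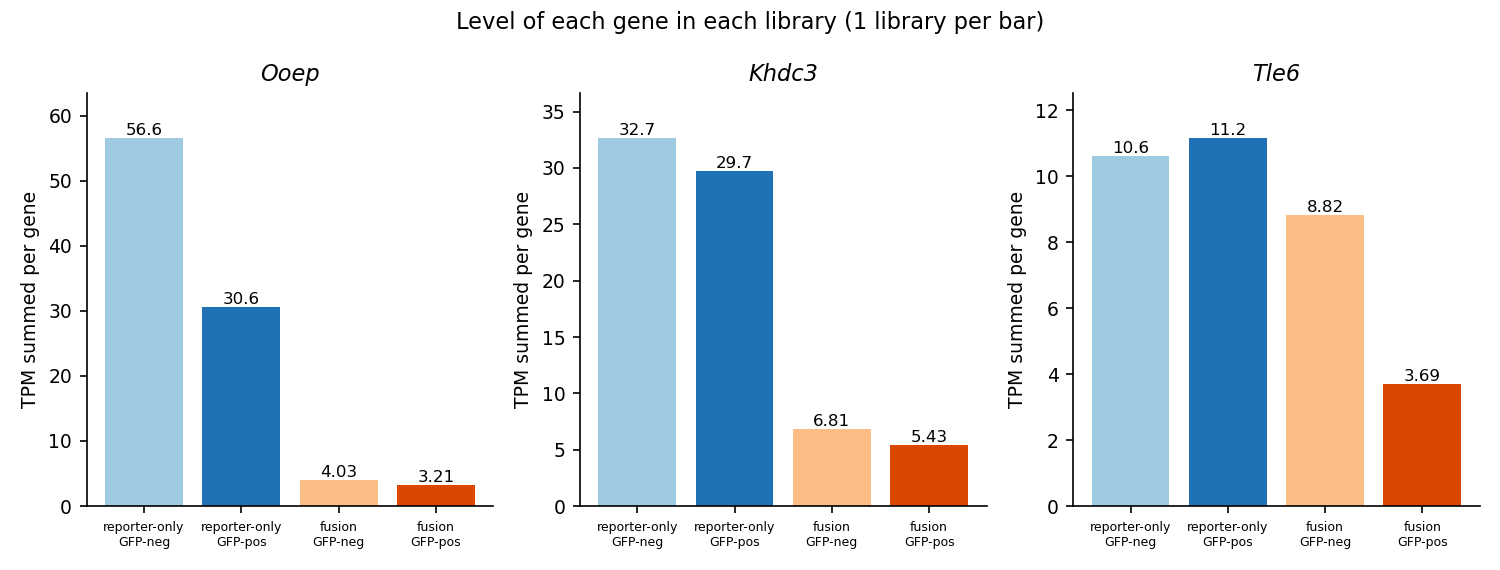
TPM summed per gene (y axis, from 0, a scale of its own in each panel) for Ooep, Khdc3 and Tle6 in each of the 4 libraries; each bar is 1 library, so there are no error bars. Ooep and Khdc3 are lower in both fusion libraries (3.21 to 6.81 TPM) than in both reporter-only libraries (29.7 to 56.6 TPM), whereas Tle6 is low in GFP-positive cells of the fusion line (3.69 TPM).

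The order of the 3 genes differed between the lines as well. In GFP-negative cells of the reporter-only line the order was Ooep, Khdc3 and Tle6, and in its GFP-positive cells Ooep and Khdc3 were nearly level at 30.6 and 29.7 TPM, with Khdc3 at 0.969 times Ooep. In the fusion line Khdc3 was 1.69 times Ooep in each population, and Tle6 was the highest of the 3 in GFP-negative cells. With 1 library per population there is no spread against which to set neighbouring levels. Summed over the 3 genes, the level was 99.9 TPM and 71.5 TPM in the GFP-negative and GFP-positive cells of the reporter-only line, and 19.7 TPM and 12.3 TPM in the fusion line. Ooep made up 56.7% and 42.9% of that sum in the reporter-only line and 20.5% and 26.0% in the fusion line.

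Set beside all genes, with a call meaning 2-fold or more apart among genes at 5 TPM or more in either library, all 3 genes were lower in the fusion line within GFP-positive cells, where 9.76% of 11126 genes were apart and 4.05% lower. Within GFP-negative cells 2 of the 3, Ooep and Khdc3, were lower, where 38.6% of 10672 genes were apart and 8.49% lower. In GFP-positive cells Tle6 was under 2-fold with a pseudocount of 5 TPM (-0.90) and with ENSMUST00000134457 alone (-0.46). The genes were chosen on these comparisons, so nothing is read from these counts. In GFP-positive cells 97 genes had a ratio as low as that of Ooep or lower, 156 as low as that of Khdc3 and 292 as low as that of Tle6. In GFP-negative cells the corresponding numbers were 104, 371 and 3609.

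Ooep and Khdc3 belonged to a small set of genes lower in the fusion line in both populations. This set held 84 genes, 0.84% of the 10000 that reached 5 TPM in both pairs of libraries, and made up 18.6% of the genes lower in GFP-positive cells and 9.27% of those lower in GFP-negative cells. These comparisons share no library but set the same lines against each other. The genes were chosen on these comparisons, so nothing is read from their place or rank in the set. Of the 84, 41 are annotated as protein-coding and 35 as pseudogenes. The share of pseudogenes among the 10000 was not counted, so nothing is read from these numbers. By the sum of both log2 ratios, Ooep ranked 18 and Khdc3 ranked 38. At rank 1 was Tep1, which encodes a protein of the telomerase and vault particles, at 41.9 and 54.8 TPM in the reporter-only line and listed at 0 in both libraries of the fusion line.

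**Figure D2:**
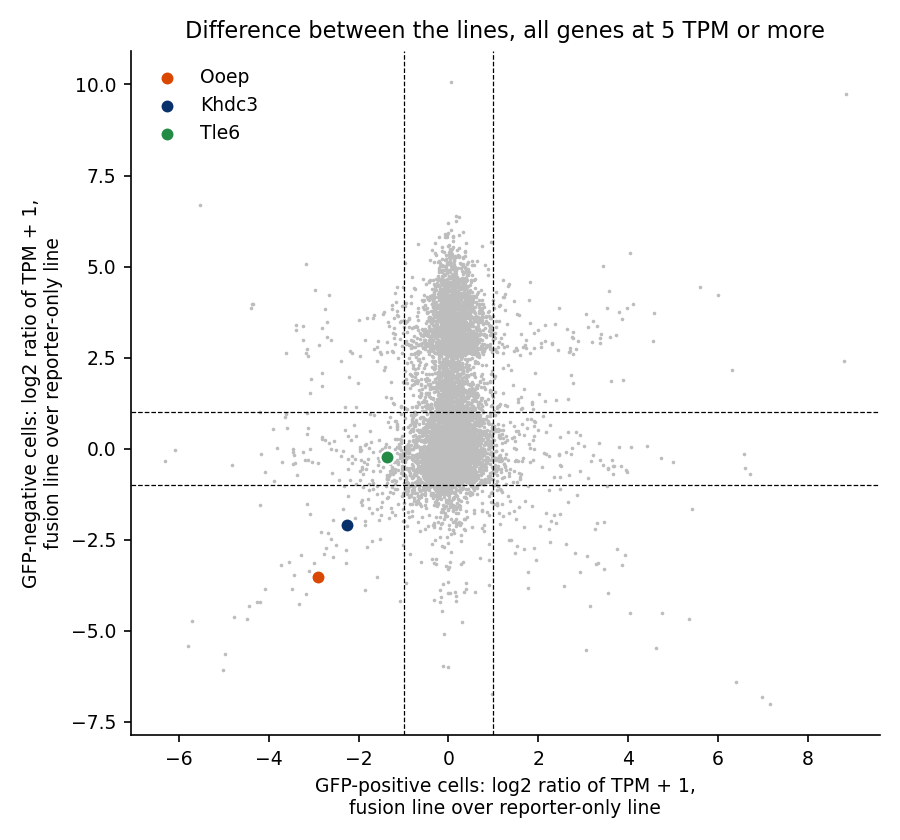
Log2 ratio of TPM + 1, fusion line over reporter-only line, in GFP-positive cells (x axis) and in GFP-negative cells (y axis); each grey point is a gene at 5 TPM or more in either library of each pair (10000 genes), and dashed lines mark 2-fold. Ooep (-2.91, -3.52) and Khdc3 (-2.25, -2.11) lie in the lower left, and Tle6 (-1.38, -0.24) lies left of centre near 0 on the y axis.

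The sort on the reporter separated Ooep and Khdc3 less than the lines did, whereas for Tle6 the sort in the fusion line gave a larger ratio than the lines in GFP-negative cells. In the reporter-only line, the log2 ratio of GFP-positive to GFP-negative cells was -0.86 for Ooep, -0.13 for Khdc3 and 0.07 for Tle6, and none of the 3 was 2-fold apart, where 40.7% of 11062 genes were, 7.48% lower and 33.2% higher. The Tle6 value turned to -0.63 with quantile normalization and to -2.25 with ENSMUST00000134457 alone. In the fusion line the ratios were -0.26 for Ooep, -0.28 for Khdc3 and -1.07 for Tle6. Tle6 was thus the 1 gene of the 2 at 5 TPM or more that was 2-fold or more lower, where 11.4% of 10981 genes were apart and 3.14% lower. It was under 2-fold with a pseudocount of 5 TPM (-0.67) and with ENSMUST00000134457 alone (-0.39). The Khdc3 value turned to 0.48 with ENSMUST00000167514 alone. Ooep was under 5 TPM in both of these libraries and was not counted. The sort comparisons share their libraries with the comparisons of the lines.

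At the level of transcripts, Tle6 differed between the sorted populations in a way that its sum did not show. Its 2 listed protein-coding transcripts, ENSMUST00000072020 and ENSMUST00000142948, had a value of 0 in each GFP-negative library. In GFP-positive cells ENSMUST00000072020 was at 4.64 TPM in the reporter-only line and 2.16 TPM in the fusion line, and ENSMUST00000142948 was at 1.40 TPM in the reporter-only line and listed at 0 in the fusion line. Protein-coding transcripts thus took 54.1% and 58.5% of the Tle6 level in the GFP-positive libraries of the reporter-only line and the fusion line. The GFP-positive libraries lay above the GFP-negative ones for the coding sum, at 6.04 and 2.16 TPM against 0 as listed.

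The Tle6 level of the GFP-negative libraries was assigned to transcripts with no annotated protein. In the reporter-only line it lay wholly on ENSMUST00000134457, a retained-intron transcript, at 10.6 TPM, with the other 9 listed at 0. In the fusion line the 4 retained-intron transcripts took 5.21 TPM (59.0%) and the 4 processed transcripts 3.61 TPM (41.0%). The highest of each class were ENSMUST00000153379, with a retained intron, at 2.68 TPM and ENSMUST00000129282, a processed transcript, at 2.06 TPM. ENSMUST00000134457 has 620 bases, of which 544 also lie in exons of ENSMUST00000072020 and 76 do not, so most of its sequence cannot tell the transcripts apart. ENSMUST00000129282 lies wholly within exons of ENSMUST00000072020. A value of 0 is therefore an assignment by the software and cannot be read as absence of the coding transcript, and the part of read assignment in this pattern was not tested.

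Khdc3 has 4 listed transcripts, all annotated as protein-coding. ENSMUST00000167514 was the highest in every library, at 30.2 and 18.7 TPM in the GFP-negative and GFP-positive cells of the reporter-only line and at 3.42 and 5.16 TPM in the fusion line. Both reporter-only line libraries lay above both fusion libraries for this transcript. ENSMUST00000173734 was at 0.379 and 10.98 TPM in the reporter-only line and at 2.99 TPM and 0 as listed in the fusion line, so it was higher in the GFP-positive library of the first line and in the GFP-negative library of the second. ENSMUST00000034737 was between 0.0447 and 2.05 TPM, and ENSMUST00000172578 was at 0.0918 TPM in GFP-negative cells of the fusion line and listed at 0 elsewhere. ENSMUST00000173734 shares 948 of its 1228 bases with ENSMUST00000167514, and how reads were divided between them was not tested.

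**Figure D3:**
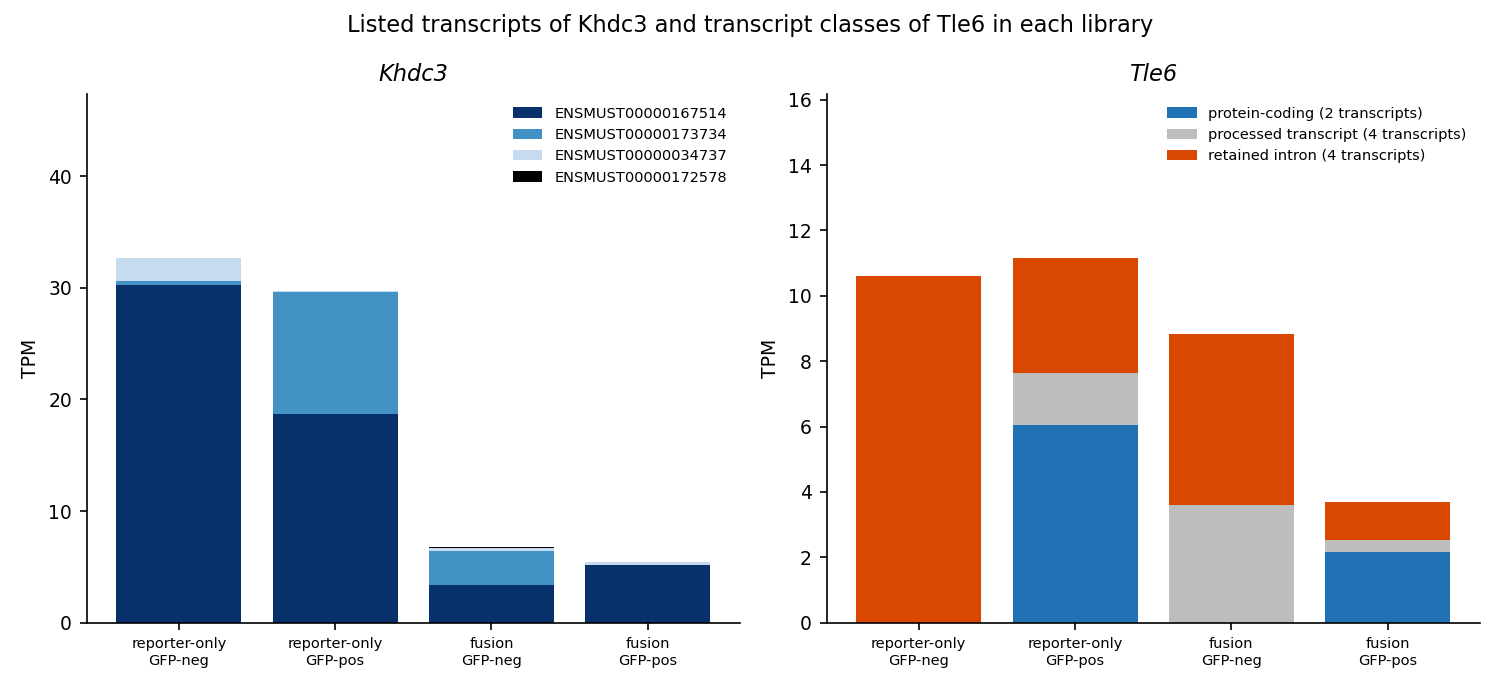
TPM (y axis, from 0) of the 4 listed Khdc3 transcripts and of the 3 annotated classes of Tle6 transcripts, stacked, in each of the 4 libraries. ENSMUST00000167514 makes up 50.3% to 94.9% of Khdc3, and the protein-coding class of Tle6 is seen in the GFP-positive libraries (6.04 and 2.16 TPM).

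Genes near the 3 loci were examined to see whether the line difference extended along the chromosome. Within 100 kb of Ooep, 10 other genes had a row, and of the 4 at 5 TPM or more in GFP-positive cells 1 was 2-fold or more lower in the fusion line and 0 higher, beside 4.05% and 5.71% of all genes. This was Mto1, a gene of mitochondrial transfer RNA modification, at 9.22 and 8.27 TPM in the reporter-only line and 6.91 and 3.13 TPM in the fusion line. The nearest expressed neighbour, Dppa5a, an abundant pluripotency-associated gene 7931 bases from Ooep and the 1 of 5 listed KH-domain relatives with a row, was at 2729 and 2291 TPM in the reporter-only line and at 41.4 and 2280 TPM in the fusion line. Dppa5a was thus low in GFP-negative cells of the fusion line alone, and in GFP-positive cells, where Ooep was 9.54 times apart, its log2 ratio between the lines was -0.01. Dppa5a has 1 listed transcript. Of the 4 neighbours at 5 TPM or more in GFP-negative cells, Dppa5a was the 1 lower and Eef1a1, a translation elongation factor gene, at 1772 and 5543 TPM, the 1 higher, beside 8.49% and 30.1% of all genes.

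Within 100 kb of Khdc3, 11 other genes had a row, and of the 5 at 5 TPM or more in GFP-positive cells 0 were 2-fold apart between the lines, beside 9.76% of all genes. In GFP-negative cells 1 of 5 was lower, beside 8.49%. This was the processed pseudogene Gm5745, at 26.5 and 5.32 TPM, a log2 ratio of -2.12, while Khdc3 had -2.11. In GFP-positive cells Gm5745 was at 6.09 and 6.92 TPM, a log2 ratio of 0.16, while Khdc3 had -2.25. The nearest neighbour at 5 TPM or more, Rsl24d1, a ribosome biogenesis gene, was at 56.8 and 75.4 TPM in the reporter-only line and 51.7 and 56.3 TPM in the fusion line. Rab27a, a small GTPase gene of vesicle traffic 4206 bases away, was at 6.07 and 4.01 TPM in the reporter-only line and 3.13 and 0.567 TPM in the fusion line. It was under 5 TPM in GFP-positive cells and so not counted there, with a log2 ratio of -1.68. Gm20509 overlaps Khdc3 on the same strand and shares 750 of its 1016 bases with ENSMUST00000167514. It was listed at 0 and 2.57 TPM in the reporter-only line and at 0.0446 TPM and 0 in the fusion line, so reads of either gene could have been given to the other.

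Within 100 kb of Tle6, 13 other genes had a row, and of the 8 at 5 TPM or more in GFP-positive cells 3 were 2-fold or more higher in the fusion line and 0 lower, beside 5.71% and 4.05% of all genes. In GFP-negative cells 1 of 8, Sirt6, was lower and 0 were higher, beside 8.49% and 30.1%. Sirt6, a chromatin deacetylase gene, was at 26.1 and 6.77 TPM in the reporter-only line and at 8.43 and 16.8 TPM in the fusion line. Tle2, another Groucho gene that ends 58 bases from Tle6 on the other strand, was at most 0.779 TPM. Aes, a short Groucho family gene 24541 bases away, was between 246 and 378 TPM.

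**Figure D4:**
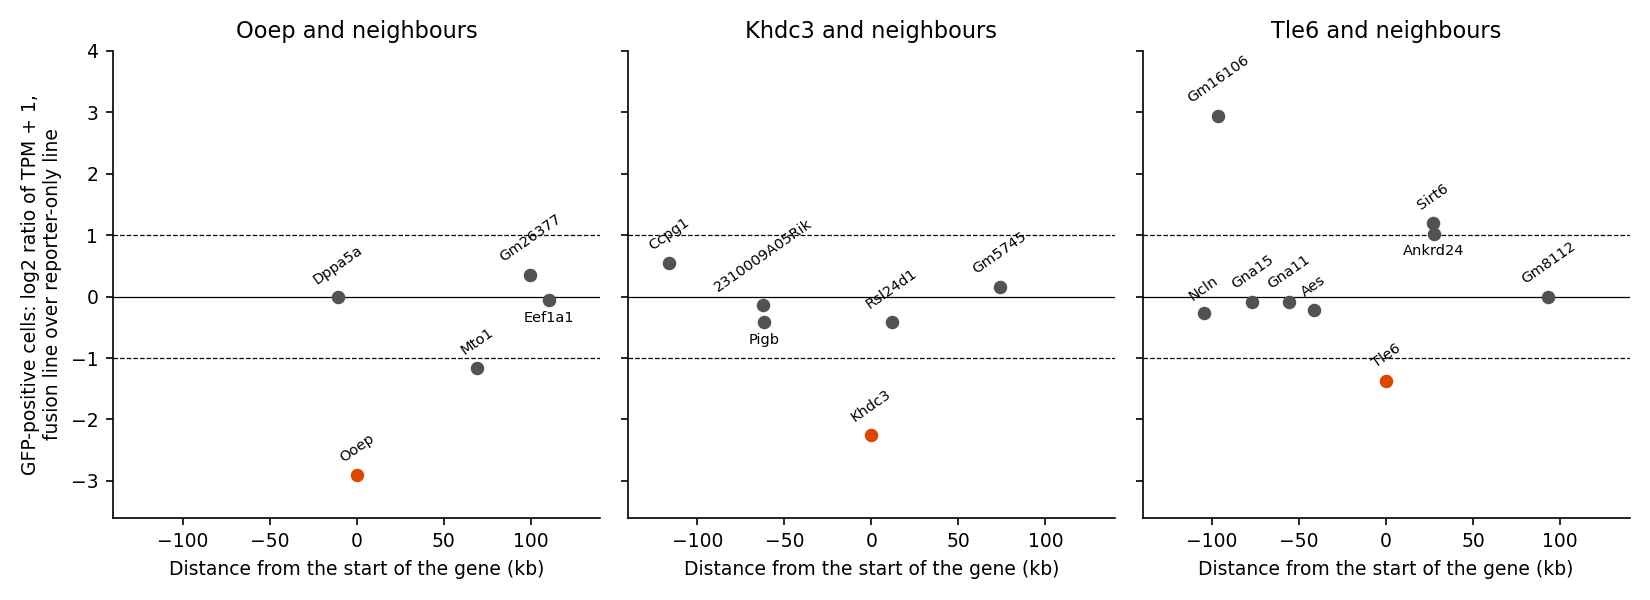
Log2 ratio of TPM + 1 between the lines in GFP-positive cells (y axis, fusion line over reporter-only line) against the distance between gene starts in kb (x axis, along the plus strand) for genes within 100 kb of Ooep, Khdc3 and Tle6 that reached 5 TPM in either library; dashed lines mark 2-fold. The 3 genes of the complex (orange, -2.91, -2.25 and -1.38) each lie below every neighbour shown, of which Mto1 near Ooep (-1.17) is the 1 below the lower dashed line. The 3 genes were chosen on differences between the lines, so nothing is read from their place below the neighbours. Neighbours under 5 TPM are not shown, among them Rab27a (-1.68) and Gm20509 (-1.84) near Khdc3.

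Of 15 proteins reported to bind the complex or share its place in the egg, 4 had a row and 11, all of the NLRP family, did not. None of the 4 was 2-fold apart in any of the 4 comparisons, where 9.76% to 40.7% of all genes were, and so few genes say little. Zbed3, a reported binding partner, was at 15.0 and 13.1 TPM in the reporter-only line and 11.9 and 12.1 TPM in the fusion line. Uhrf1, a DNA methylation cofactor, was at 320 and 281 TPM and then 227 and 212 TPM, and the 14-3-3 genes Ywhae and Ywhah were between 582 and 701 TPM and between 86.6 and 118 TPM. Between the lines in GFP-positive cells these partners had a median log2 ratio of -0.23, beside 0.02 over all genes with a row.

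Of the 5 Groucho relatives of Tle6, 4 reached 5 TPM, and 1 of these was 2-fold or more higher in the fusion line in GFP-positive cells, where 5.71% of genes were. This was Tle3, at 48.3 and 20.3 TPM in the reporter-only line and 78.0 and 64.9 TPM in the fusion line. Tle1 was at 4.89 and 23.0 TPM and then 16.8 and 29.9 TPM, and Tle4 was listed at 0 in GFP-negative cells of the reporter-only line and was between 21.9 and 27.3 TPM elsewhere. Of the relatives of Padi6, Padi2 and Padi4 had a row, with Padi2 at 5.19 and 2.65 TPM and Padi4 at 5.96 and 1.78 TPM in the GFP-positive cells of the reporter-only line and the fusion line. Padi4 was 2-fold or more lower in the fusion line there and Padi2 was not, beside 4.05% of all genes lower. Both passed 5 TPM narrowly, and through the reporter-only library alone, so nothing is read from this call. Both were listed at 0 in GFP-negative cells of the reporter-only line.

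Genes that act at stalled replication forks, some of them with OOEP and KHDC3, were apart between the lines in GFP-positive cells about as rarely as genes in general. All 29 genes of this list had a row, 26 reached 5 TPM, and 1 of the 26 was 2-fold or more higher in the fusion line and 0 lower, beside 5.71% and 4.05% of all genes. Blm, the helicase gene of the fork pathway, was at 28.8 and 34.7 TPM in the GFP-positive cells of the reporter-only line and the fusion line, and Trim25, a ubiquitin ligase gene of that pathway, at 50.2 and 48.2 TPM. The higher gene was Rad50, of the MRE11 complex, at 1.09 and 16.5 TPM. Topbp1, an activator of the ATR kinase, was at 47.4 and 93.8 TPM, a log2 ratio of 0.97. The single-strand binding genes Rpa1 (79.4 and 64.8 TPM) and Rpa2 (60.0 and 68.4 TPM) and the damage sensor Parp1 (389 and 314 TPM) differed by less than 2-fold. 

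In GFP-negative cells 9 of 26 fork genes were 2-fold or more higher in the fusion line and 0 lower, beside 30.1% of all genes higher. For 8 of the 29 genes the value in GFP-negative reporter-only cells was 0. With the sort, 9 of 26 were higher in GFP-positive reporter-only cells, beside 33.2%, and 1 of 26 was higher in the fusion line, beside 8.23%. The latter was Rad17, the clamp loader gene of the checkpoint, at 7.07 and 15.9 TPM. Between the lines in GFP-positive cells the fork list had a median log2 ratio of -0.06.

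Genes whose egg product is needed by the embryo were counted next. Of 36 maternal effect genes, 29 had a row, 27 reached 5 TPM in GFP-positive cells, and 3 were 2-fold or more higher and 2 lower in the fusion line, beside 5.71% and 4.05% of all genes. Higher were Dppa3, which protects maternal DNA methylation, at 2.96 and 8.58 TPM, Cnot6l, a deadenylase gene, at 0.425 and 6.42 TPM, and Dicer1 of small RNA processing at 4.91 and 11.7 TPM. Lower were Sin3a, a corepressor gene, at 64.3 and 13.0 TPM and Yap1, a Hippo pathway coactivator gene, at 52.3 and 24.8 TPM. The list median was 0.04. The most abundant were Trim28, a cofactor of imprint maintenance, at 1076 and 1185 TPM, the pluripotency genes Pou5f1 (1075 and 1103 TPM) and Sox2 (434 and 554 TPM), and Cdh1, the E-cadherin gene, at 180.2 and 122 TPM.

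Of 17 actin regulators, a group reported to depend on the complex in the mouse zygote, all had a row and 13 reached 5 TPM in GFP-positive cells. Between the lines 0 of the 13 were 2-fold apart there, beside 9.76% of all genes, a share that would leave few of 13 apart. Cfl1, the main cofilin gene, was at 570 and 466 TPM, Actb at 863 and 682 TPM, Actg1 at 157 and 166 TPM and Rhoa at 113 and 133 TPM. Among those at 5 TPM or more, the furthest apart were Limk1, a cofilin kinase gene, at 16.2 and 8.60 TPM, Actr3, of the branched actin nucleator, at 87.9 and 55.5 TPM, and Cfl2, another cofilin gene, at 6.05 and 8.63 TPM. With the sort, 5 of 13 were 2-fold or more higher in GFP-positive reporter-only cells, beside 33.2% of all genes, and 0 of 13 were apart in the fusion line.

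Markers of the egg, the cell that is the usual source of these messengers, were under 5 TPM apart from Sohlh2. Leaving out the complex, 6 of 25 egg markers had a row, and their sum was 0.374 and 32.2 TPM in the GFP-negative and GFP-positive cells of the reporter-only line and 25.2 and 30.8 TPM in the fusion line. Sohlh2, a germ cell transcription factor gene, made up most of it, at 25.2 TPM, 22.9 TPM and 26.7 TPM in the libraries other than the GFP-negative library of the reporter-only line, where it was listed at 0. Zp3, which encodes an egg coat protein, was at most 4.36 TPM, and Gdf9, an egg growth factor gene, at 0.33 TPM in the GFP-positive cells of the reporter-only line and listed at 0 elsewhere. Ooep and Khdc3 were highest in the library in which 5 of the 6 egg markers were listed at 0, and in that library 48.4% of all symbols were at 0 as well.

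Among markers of other cell types, the summed level of primitive endoderm genes, carried by Sparc, was higher in the reporter-only line. The 7 of 10 with a row summed to 282 and 280 TPM in the reporter-only line and 214 and 114 TPM in the fusion line, with GFP-negative cells given first. Sparc, a matrix protein gene also active in other cells, was the highest in 3 of the libraries, at 248.7 and 209 TPM and then 154 TPM, and was at 33.7 TPM in the GFP-positive fusion library, behind Col4a1 at 58.8 TPM. Other members had another order, with Col4a1 at 32.9 and 41.6 TPM and then 43.2 TPM in the other libraries, and the list had a median log2 ratio between the lines of 0.00 in GFP-positive and 0.27 in GFP-negative cells. The defining factors Gata4, Sox17, Sox7 and Foxa2 were at most 2.13 TPM, each listed at 0 in GFP-negative cells of the reporter-only line. Whether cells of this type were present, and any part of them in the Ooep and Khdc3 values, was not tested. The 7 of 10 trophectoderm genes with a row summed to 78.3 and 53.5 TPM and then 65.5 and 52.4 TPM. The 3 of 5 mesoderm genes summed to 0 and 10.0 TPM and then 14.5 and 15.2 TPM, and the 4 of 5 ectoderm genes to 48.1 and 41.8 TPM and then 69.2 and 76.2 TPM. The 4 of 6 fibroblast genes summed to 310 and 202 TPM and then 8.28 and 186 TPM, nearly all from Vim, with Col1a1 at most 0.114 TPM.

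The genes with profiles most like each member were found by the distance between log2(TPM + 1) profiles over the 4 libraries, each centred on its own mean, among genes within 4-fold of the member's mean level. For Ooep the 5 nearest of 8230 genes were all processed pseudogenes, led by Gm10327 at a distance of 0.51. For Khdc3 the nearest of 8646 was Ptprf, a receptor tyrosine phosphatase gene, at a distance of 0.12, with 76.3 and 74.7 TPM in the reporter-only line and 18.4 and 15.6 TPM in the fusion line, and the other 4 were processed pseudogenes. For Tle6 the nearest of 9019 was Zfp462, a zinc finger gene, at a distance of 0.17, with 22.1 and 26.3 TPM and then 21.8 and 8.81 TPM, followed by Mto1 at 0.18, Slmo2, Mob3b and the pseudogene Gm12242. Reads of processed pseudogenes are hard to tell from those of their parent genes. How common pseudogenes were among the genes searched was not counted.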

How the data were processed

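Poly-A RNA was sequenced from 4 sorted populations, 1 library each. The deposited values are TPM per transcript. Per the submitters' processing notes, CASAVA, HISAT2 2.1.0 and StringTie 1.3.5 were used with GRCm38 (mm10); the sources used here give no options, strand setting or annotation release, nor why these 58853 transcripts are listed.

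TPM were summed per symbol in Python 3.11.15 with pandas 2.3.3. Ratios are of TPM + 1 on the log2 scale. Calls are 2-fold or more among genes at 5 TPM or more in either library. The counting alone was checked on simulated data without noise, which says nothing of error in the calls. No p-value is given, since each population is 1 library; a model with sort and line as terms, which would leave 1 residual degree of freedom, was not fitted. GENCODE M21, on the same build, supplied positions and transcript types, and RefSeq (GRCm38.p6) the promoter sequences, which matched all 3 genes.

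The members and the 16 gene lists were chosen with earlier results of these data known. The naming rule took from each list the 4 genes of highest mean TPM and the 3 with the largest line difference in GFP-positive cells, the neighbours within 100 kb and the 5 most alike genes; marker lists are given mainly as sums. Of these, 1 gene is not reported here. Tep1, Blm, Trim25, Rad17, Dicer1, Yap1, Tle2, Zp3, Gdf9, Sox17, Sox7 and Foxa2 were named after their values were seen. Alternatives were other pseudocounts, filters, scalings and transcripts.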

Additional observations from a re-analysis of the deposited data

Results flagged for a closer look

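The Tle6 ratios of the sort had opposite signs in the lines, 1 of them close to 0. GFP-positive over GFP-negative cells gave a log2 ratio of 0.07 for the reporter-only line but -1.07 for the fusion line, a difference of -1.13. With 1 library per population this difference was not tested. The reporter-only value was -0.63 with quantile normalization and -2.25 with ENSMUST00000134457 alone, both of the same sign as in the fusion line, and with that transcript alone the difference reversed to 1.85. The sums rest on different transcripts: in the GFP-negative library of the reporter-only line the level lay wholly on ENSMUST00000134457, and the part of that assignment in the difference was not tested.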

How the results depend on the processing

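The lower level of Ooep and Khdc3 in the fusion line kept its direction in both populations under every setting run (pseudocounts of 0.1 and 5 TPM, median-ratio scaling, quantile normalization, the highest transcript alone and, added after seeing the data, protein-coding transcripts alone). The Ooep ratio ranged from -3.39 to -2.12 in GFP-positive and from -3.78 to -2.77 in GFP-negative cells, with the smallest sizes at 5 TPM (-2.12 and -2.77). The Khdc3 ratio ranged from -2.68 to -1.68 and from -2.82 to -1.67, and was -2.82 in GFP-negative cells with ENSMUST00000167514 alone. With its highest transcript alone Khdc3 turned to 0.48 for the sort in the fusion line, and its difference between the lines in the sort to 1.14. A ratio was counted as moved when it changed by 1.5 times or more, since there is no replicate spread.

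Tle6 depended on the transcripts counted. With ENSMUST00000134457 alone its ratios between the lines were -0.46 in GFP-positive and -2.31 in GFP-negative cells, those of the sort were -2.25 in the reporter-only line and -0.39 in the fusion line, and the difference between the lines turned to 1.85. With a pseudocount of 5 TPM its 2-fold calls were lost, at -0.90 for the lines in GFP-positive cells and -0.67 for the sort in the fusion line. Quantile normalization turned the sort ratio in the reporter-only line to -0.63. Protein-coding transcripts alone gave no Tle6 ratio where a library was listed at 0.

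The counts of genes 2-fold or more apart depended on the filter. For the lines in GFP-positive cells the count was 1086, and 2105 at 1 TPM or with no filter and 639 with a pseudocount of 5 TPM. In GFP-negative cells it was 4120, then 6319 at 1 TPM or with no filter and 2167 among genes above 0 in both libraries. For the sort it was 4503, then 7023 and 2345, in the reporter-only line, and 1249, then 2402 at 1 TPM or with no filter, in the fusion line. With quantile normalization the median ratio of all genes went from 0.00 to -0.22 for the lines in GFP-negative cells and from 0.12 to -0.22 for the sort in the reporter-only line. Genes counted as higher then made up 52.1% in place of 78% for the lines in GFP-negative cells, 51.3% in place of 81.6% for the sort in the reporter-only line and 55.8% in place of 72.4% in the fusion line. Among genes above 0 in both libraries they were 59.8% for the lines in GFP-negative cells and 65.6% for the sort in the reporter-only line. Each population is 1 library and the labels give no replicate numbers, so no test paired by replicate was possible. A fit with line and sort as terms, which pairs libraries by line and leaves 1 residual degree of freedom, could have been made and was not run, since the genes were chosen on these values. Read depth is unknown, so no counting error could be given.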
